A study of Mus musculus with 12 samples.

Results

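The diet-by-genotype interaction asks whether fat that lacks the microRNA gene Mir10a answered a high-fat diet differently from normal fat. The tissue was gonadal white fat of male mice on the C57BL/6 background, with the wild type (WT) or the miR-10a knockout (KO) genotype. Mice of each genotype were kept for 16 weeks, from the age of 8 weeks, on normal chow (NCD) or on high-fat feed (HFD). All 12 of the 12 mRNA-seq libraries of the series enter the contrast, 3 in each of the groups WT on NCD, WT on HFD, KO on NCD and KO on HFD. The groups were read from the genotype and diet in each column name, and libraries are named by group and header number, such as KO_NCD 2. The labels state neither the cell types that lack Mir10a nor the composition of the diets. The design text calls the samples biological replicates, without saying that each came from a single mouse.

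For each gene the contrast took the HFD minus NCD difference of log2(FPKM + 1) in KO and subtracted the same difference in WT. FPKM is a fragment count scaled to transcript length and library size. A value above 0, called higher here, means that HFD raised the gene more, or lowered it less, in KO than in WT. The same number is also the KO minus WT difference on HFD minus that on NCD. Counts were not part of the table, which leaves the depth behind each value unknown. In bulk tissue, fewer cells of a type and less RNA per cell cannot be told apart.

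White fat stores triglyceride in adipocytes and also holds macrophages, mast cells, fibroblast-like progenitors, vessels and a mesothelial cover. In long-term high-fat feeding, adipocytes enlarge and macrophages gather around dying ones, where they take up lipid and build lysosomes. Mast cells are resident immune cells whose granules hold proteases such as tryptase, chymase and carboxypeptidase, and which are triggered through the receptor for immunoglobulin E. A microRNA lowers the output of messenger RNAs that pair with its seed, the bases near its 5′ end.

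The deleted microRNA is shown beside its closest relative because both carry the same seed, in capitals (bases 2 to 8, 5′ to 3′, RefSeq, GRCm38.p6). The first lies on the plus strand at chr11:96317186-96317208 and the second on the plus strand at chr2:74726074-74726096.
mmu-miR-10a-5p: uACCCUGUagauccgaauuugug
mmu-miR-10b-5p: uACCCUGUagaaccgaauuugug
The 2 mature sequences differ by U12A, counted from 1 at the 5′ end with the miR-10a base first, and no other mouse miRNA of the table shares the seed. The precursor Mir10a was listed between 0.0221 and 0.425 FPKM over the 12 libraries, with WT and KO values overlapping on both diets. Poly-A selection does not capture mature microRNAs, so the genotype labels cannot be checked with this gene.

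The libraries summed to 383633 to 455434 FPKM, and 12859 to 13667 genes reached 1 FPKM. Adipocyte markers were high in every library: the summed FPKM of 20 adipocyte genes ran from 10660 to 41440. Transcripts of ciliated epithelium were high in KO_NCD 2 (133 summed FPKM over 19 marker genes), WT_NCD 2 (105) and WT_NCD 4 (88.2) against 30.8 to 41.4 in the other NCD libraries. The 14 genes of epididymis and efferent duct ran from 202 to 249 in these libraries and from 158 to 219 in the other NCD libraries. WT on NCD thus holds 2 of these libraries and KO on NCD holds 1, so results are also given without them.

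Of 14340 tested genes, 39 passed the interaction threshold (limma, Benjamini-Hochberg adjusted p under 0.05, 0.272% of genes). Of these, 38 were higher (0.265%) and 1 was lower (0.00697%). At an unadjusted p under 0.05 there were 2649 genes (18.5%), of which 2084 were higher (14.5%) and 565 lower (3.94%). The median interaction over all tested genes was 0.088. Among the 39 genes, 29 had diet effects above 0 in both genotypes with the larger one in KO, 9 had an effect above 0 in KO and below 0 in WT, and 1 had the reverse.

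**Figure D1:**
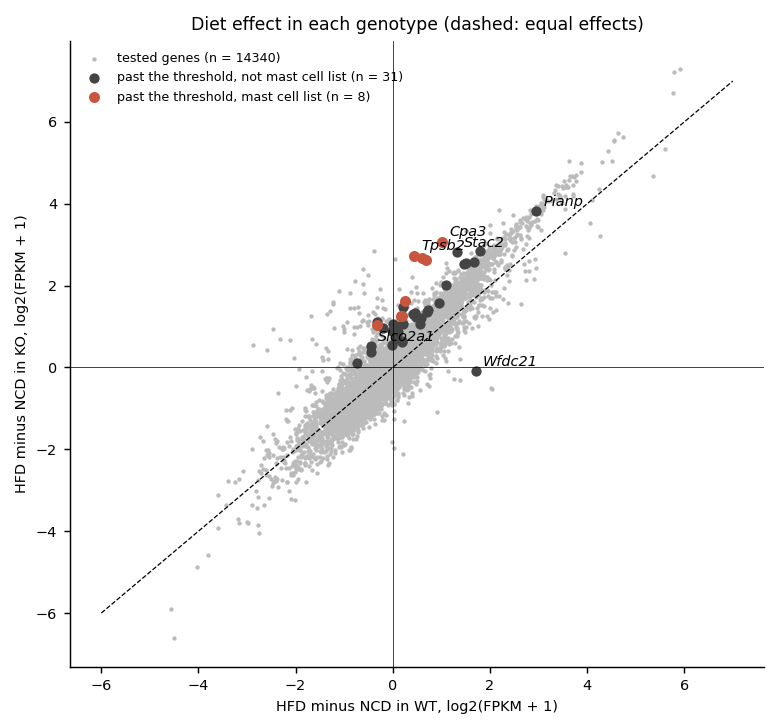
Diet effect (HFD minus NCD, log2(FPKM + 1)) in WT on the x axis and in KO on the y axis for 14340 tested genes, with equal effects on the dashed line. The 38 genes higher in the interaction lie above the line, the 8 mast cell genes among them between -0.32 and 1.01 on the WT axis, and Wfdc21 lies below it.

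In the same fit, 37 of the 39 genes also passed the diet test in KO, where 60.9% of all tested genes did (4967 higher and 3763 lower, or 3824 and 5188 after median centring), and 25 passed it in WT, where 50.8% did. The genotype test on HFD was passed by 26 of the 39, against 0.802% of all tested genes (0.6% higher and 0.202% lower in KO, or 86 and 29 genes, and 68 and 46 after median centring). The genotype test on NCD was passed by 0 of the 39, against 0.0488% of all tested genes (0.0418% higher and 0.00697% lower in KO). At an unadjusted p under 0.05, the limma count on NCD was 731 genes over the whole table. These tests use the libraries that chose the 39 genes, so their shares describe the genes and add no support. KO and WT libraries did not overlap on HFD for 39 of 39 genes (30.7% of all tested genes) and on NCD for 31 of 39 (9.45%). In 37 genes, KO lay below WT on NCD and above WT on HFD. Over all tested genes, KO minus WT was above 0 in 28.9% on NCD (median -0.054) and in 57.1% on HFD (median 0.033). Choosing genes by a high interaction also favours this order, so the 37 are a description. The exceptions among the 39 were Stac2, at 0.012 on NCD, and Wfdc21, where the order was the opposite. The KO minus WT difference was larger on HFD for 29 genes and larger on NCD for 10.

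**Figure D2:**
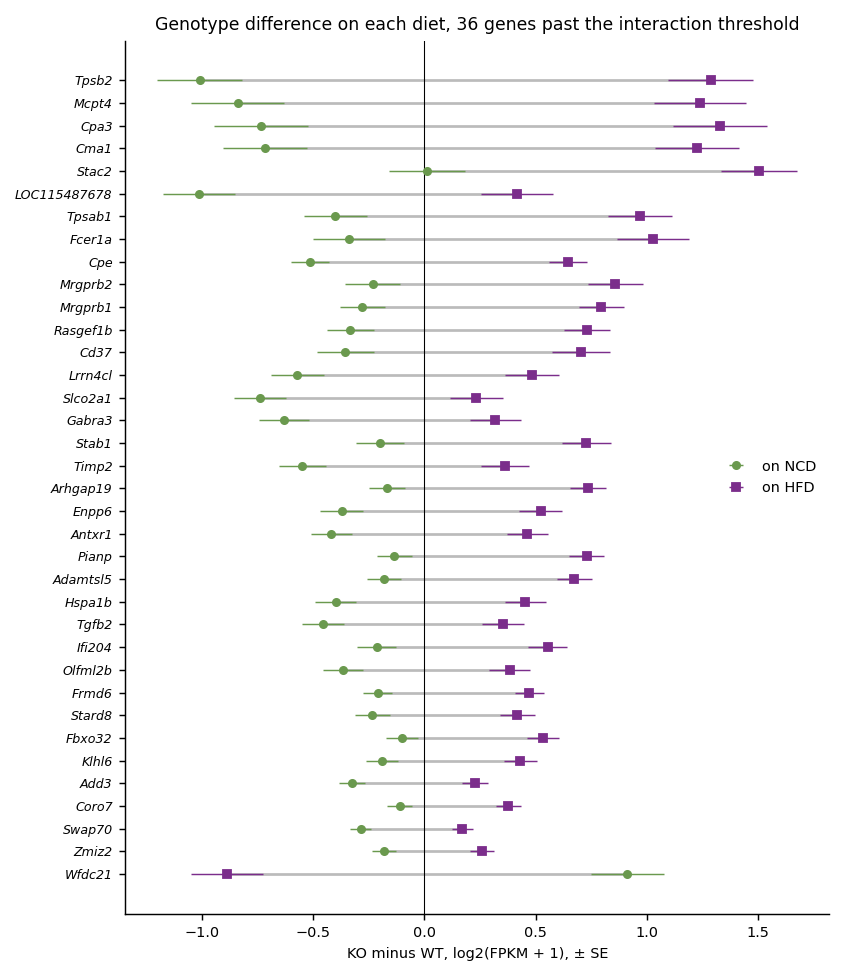
KO minus WT difference of log2(FPKM + 1) with its SE on NCD (green circles) and on HFD (purple squares) for 36 of the 39 genes past the threshold, ordered by the interaction, which is the length of the grey line. In 34 genes the green circle lies below 0 and the purple square above it, and Wfdc21 runs the other way.

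Mast cell genes made up the best represented list. Of 22 listed mast cell genes 21 were in the table and 14 reached 1 FPKM in at least 3 libraries. Of those 14, 8 passed the threshold, all higher, against 0.265% of all genes. Because a gene can reach 1 FPKM through the KO group on HFD alone, the 14 are not a neutral sample of the list, and 8 of 14 is a description. Among the 8, Mrgprb1, Mrgprb2 and Tpsab1 reached 1 FPKM in that group only. Over the whole list, the summed FPKM was 51.3 to 61.3 in WT and 27.4 to 47.8 in KO on NCD, and 91.1 to 110.3 in WT and 213 to 219.6 in KO on HFD. Every KO library was below every WT library on chow and above every one on HFD. Without Hpgds, which macrophages also express and which went from 1.53 ± 0.112 to 27.7 ± 4.84 FPKM in WT (n = 3), the sums were 49.6 to 59.8 in WT and 26.3 to 46.4 in KO on NCD. On HFD they were 57.8 to 85.6 in WT, which overlapped the WT chow range, and 167 to 178 in KO. This sum was chosen after the data were seen.

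Tpsb2 (NCBI gene 17229, chromosome 17), which encodes a mast cell tryptase, had the highest interaction. On NCD it was at 13.7, 9.08 and 10.9 FPKM in WT and 6.83, 4.32 and 4.19 in KO. On HFD it was at 16.4, 18.3 and 11.9 in WT and 38.9, 40.0 and 37.7 in KO. KO was the lower genotype on chow and the higher on HFD, while the WT libraries of the 2 diets overlapped. The diet effect was 0.43 in WT (adjusted p = 0.0787) and 2.73 in KO, an interaction of 2.30 (SE 0.27, adjusted p = 0.0248, limma).

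The chymase gene Mcpt4 (17227, chromosome 14) was at 14.4, 13.3 and 10.8 FPKM in WT and 9.68, 5.69 and 5.4 in KO on NCD. On HFD it stood at 20.9, 24.8 and 15.1 in WT and 48.2, 50.7 and 46 in KO. No KO value fell inside the WT range on either diet (interaction 2.08, SE 0.29, adjusted p = 0.0328). Cma1 (17228), the neighbouring chymase gene on chromosome 14, had 8.6, 6.02 and 7.07 FPKM in WT and 5, 4.22 and 2.91 in KO on NCD. Its HFD values were 13, 14.9 and 9.36 in WT and 28.1, 32.8 and 28.8 in KO, again without overlap (interaction 1.94, SE 0.26, adjusted p = 0.0305). Cpa3 (12873, chromosome 3), which encodes mast cell carboxypeptidase, was at 6.29, 4.47 and 3.31 in WT and 3.57, 1.73 and 2 in KO on NCD, where the genotypes overlapped. On HFD it was at 9.93, 12 and 8.98 in WT and 26.4, 26.4 and 28.8 in KO, where every KO library was above every WT library (interaction 2.06, SE 0.30, adjusted p = 0.0355). In the KO chow group, KO_NCD 2 had the highest value of each of these protease genes.

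Receptor genes followed at lower levels. Fcer1a (14125, chromosome 1), the alpha chain of the immunoglobulin E receptor, was at 1.31, 1.24 and 0.796 FPKM in WT and 2.66, 3.19 and 4.12 in KO on HFD, with 0.819, 1.01 and 0.522 in WT and 0.453, 0.227 and 0.54 in KO on NCD. Only the HFD groups were apart (interaction 1.37, SE 0.23, adjusted p = 0.0466). Mrgprb1 (233231, chromosome 7) and Mrgprb2 (243979, chromosome 7) encode related G-protein-coupled receptors, and Mrgprb2 is known to let basic compounds trigger connective tissue mast cells. Mrgprb1 was at 0.723, 0.907 and 0.671 in WT and 2.04, 1.99 and 2.15 in KO on HFD (interaction 1.07, SE 0.14, adjusted p = 0.0277). Mrgprb2, chosen with its values known, stood at 0.764, 0.576 and 0.383 in WT and 1.83, 2.12 and 1.59 in KO (interaction 1.09, SE 0.17, adjusted p = 0.0446). Tpsab1 (100503895, chromosome 17), a further tryptase locus that RefSeq annotates as a transcribed pseudogene and that was likewise chosen, had an interaction of 1.37. Mrgprb1, Mrgprb2 and Tpsab1 were below 1 FPKM in every library outside KO on HFD. The filter thus kept them through the group where they are high, and their calls are descriptions that add no support. Reads shared between Tpsb2 and Tpsab1, or between the Mrgprb genes, could have been split between them, which leaves the low members uncertain.

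**Figure D3:**
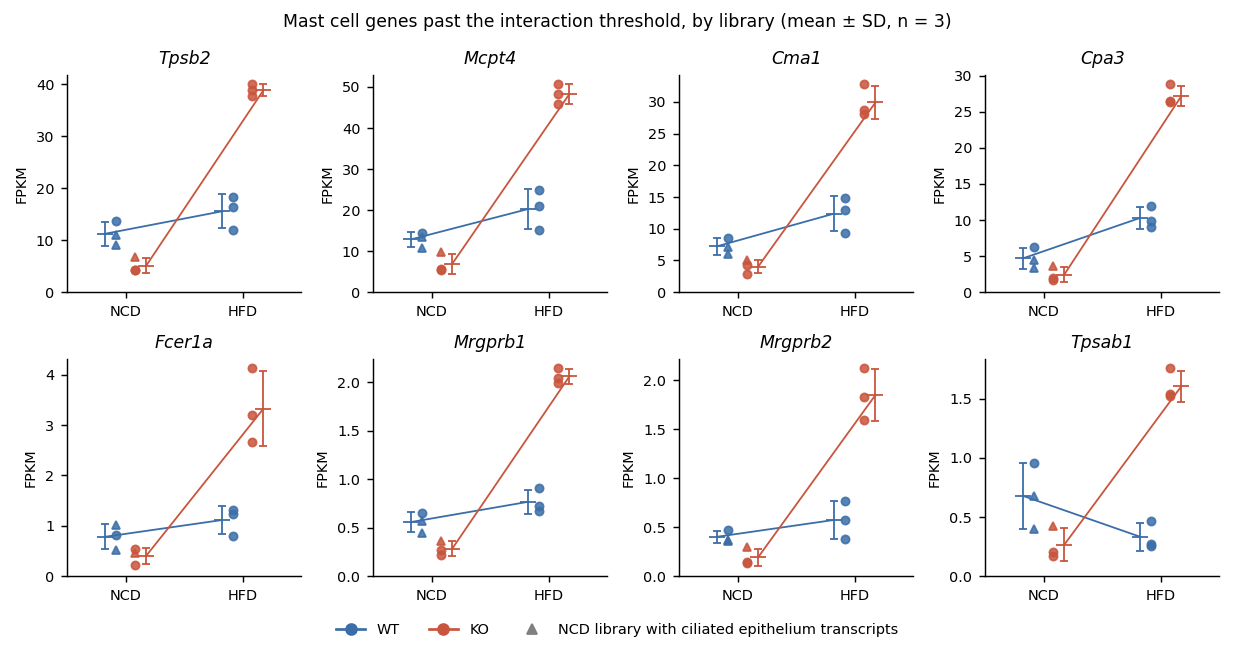
FPKM of 8 mast cell genes in every library (circles, with triangles for NCD libraries that carry ciliated epithelium transcripts) by diet, WT in blue and KO in red, with group mean and SD (n = 3) joined by lines. In each panel the KO line climbs from a lower mean than WT on NCD to values above all WT libraries on HFD. The WT line climbs less steeply, except for Tpsab1, where it falls.

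The other 6 tested mast cell genes did not pass, and all but Kit were chosen after their values were seen. Hpgds, which makes prostaglandin D2 and is also known from macrophages, was at 0.90 (adjusted p = 0.0728), and its diet effect was already 3.49 in WT. Kit, the stem cell factor receptor that mast cells depend on, was at 0.65 (adjusted p = 0.191), from 3.96 ± 0.315 to 2.9 ± 0.436 FPKM in WT and from 2.96 ± 0.755 to 3.86 ± 0.763 in KO (n = 3). Il1rl1, the interleukin-33 receptor gene, had 0.73, Hdc, which makes histamine, 0.66, the serotonin transporter gene Slc6a4 0.52, and the transcription factor gene Gata2 0.051. Kit, Gata2 and Hdc are also known from other cells. Over the 22 alternatives, 5 to 16 mast cell genes were higher and 0 lower at an unadjusted p under 0.05, against 11 of 14 in the main fit. The number tested changed with the filter: the 5 were of 5 tested at a mean of at least 5 FPKM, and the 16 of 21 tested with no filter. The number of mast cell genes past the adjusted threshold was 1 after quantile normalization and 5 after median centring. With single libraries left out it was 9 without KO_NCD 2, 5 without WT_HFD 4 and 3 without WT_NCD 2. It was 0 without any other single library. Without the 3 ciliated libraries the median interaction of the list was 1.21, against 1.08 in the main fit.

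Promoters of 4 mast cell genes are shown because these genes moved together, each on the minus strand and running from 250 bases before to 50 after the start that the RefSeq promoter table uses (GRCm38.p6, the assembly called mm10). For Cpa3 and Fcer1a that start lies slightly inside the outer end of the annotated gene. Capitals mark GATAA on either strand, read as TTATC on the other, the core that GATA-family factors are known to bind.
Cma1, chr14:55944626-55944925: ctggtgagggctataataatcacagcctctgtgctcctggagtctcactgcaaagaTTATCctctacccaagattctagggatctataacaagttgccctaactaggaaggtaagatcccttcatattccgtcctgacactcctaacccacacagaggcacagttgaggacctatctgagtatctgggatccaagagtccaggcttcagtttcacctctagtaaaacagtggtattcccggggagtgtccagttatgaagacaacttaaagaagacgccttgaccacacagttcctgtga
Mcpt4, chr14:56062261-56062560: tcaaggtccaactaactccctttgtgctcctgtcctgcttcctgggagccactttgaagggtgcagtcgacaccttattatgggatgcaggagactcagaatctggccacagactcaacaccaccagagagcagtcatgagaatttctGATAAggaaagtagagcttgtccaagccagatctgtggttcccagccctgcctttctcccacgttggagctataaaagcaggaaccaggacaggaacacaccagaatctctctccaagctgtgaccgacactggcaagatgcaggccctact
Cpa3, chr3:20242132-20242431: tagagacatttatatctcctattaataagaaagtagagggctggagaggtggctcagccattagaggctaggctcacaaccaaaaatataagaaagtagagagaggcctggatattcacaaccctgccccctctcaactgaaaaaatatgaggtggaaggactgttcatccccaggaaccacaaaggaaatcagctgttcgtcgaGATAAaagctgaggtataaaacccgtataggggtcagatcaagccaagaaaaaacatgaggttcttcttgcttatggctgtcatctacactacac
Fcer1a, chr1:173227180-173227479: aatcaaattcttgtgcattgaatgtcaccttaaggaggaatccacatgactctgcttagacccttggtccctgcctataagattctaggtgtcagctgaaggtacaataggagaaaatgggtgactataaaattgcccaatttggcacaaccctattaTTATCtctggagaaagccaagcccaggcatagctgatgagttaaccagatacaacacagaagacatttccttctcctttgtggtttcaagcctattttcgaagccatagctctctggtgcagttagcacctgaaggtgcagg
Of the 8 mast cell genes past the threshold, 6 had a promoter in the table, and all 6 held GATAA, against 16.8% of 13685 promoters of tested genes. The pattern CANNTG, where N is any base, was in 5 of the 6 and in 64.5% of those promoters. These matches describe the sequence and are not evidence of binding.

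Macrophage genes had diet effects that were mostly larger in KO, and 1 of 17 tested passed the interaction threshold, against 0.265% of all genes. The macrophage list as a whole had a median interaction of 0.79, with 15 of 17 genes higher at an unadjusted p under 0.05, against 14.5% of all genes. Its median diet effect was 2.14 in WT and 2.85 in KO.

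Adgre1, which encodes the macrophage surface protein F4/80, was at 92.4, 94.4 and 127 FPKM in WT and 158, 143 and 211 in KO on HFD. On NCD it was at 9.03 ± 2.03 in WT and 6.94 ± 1.57 in KO (n = 3), and its interaction of 1.03 did not pass (adjusted p = 0.146). The lysozyme gene Lyz2 (1.01), Itgam, which encodes CD11b (1.26), and the complement gene C1qb (0.65) were of similar size and did not pass either. Cd163, a marker of resident-type macrophages, was the 1 member below 0, at -0.25. These 4 genes were chosen after their values were seen. Lipid-associated macrophage genes had a median of 0.72, with 0 past the threshold. Of the 18, 10 were higher and 1 lower at an unadjusted p under 0.05, against 14.5% and 3.94% of all genes. Trem2, a lipid receptor of these cells, was at 1.09 (adjusted p = 0.11), on values of 113, 107 and 153 in WT and 195, 172 and 241 in KO on HFD. The most abundant members, Lpl (-0.13) and Cd36 (0.054), are also adipocyte genes. Ctsk, a lysosomal protease gene, was at 0.76 with an adjusted p of 0.0524, just outside the threshold, also chosen in this way.

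Lysosome genes encode the enzymes and membrane proteins of the compartment that degrades engulfed material, and 1 of 18 tested passed the threshold, against 0.265% of all genes. Of the 18, 12 were higher at an unadjusted p under 0.05, against 14.5% of all genes (median 0.35), and this count ran from 4 to 13 over the alternatives.

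Further genes known from leukocytes passed, and all but Cd37 and Rasgef1b were named after their values were seen. Cd37 (12493, chromosome 7), a tetraspanin of white blood cells, went from 9.92 ± 1.57 to 29.8 ± 3.98 FPKM in WT and from 7.48 ± 0.406 to 49.2 ± 6.46 in KO (n = 3, interaction 1.06, adjusted p = 0.0495). Rasgef1b (320292, chromosome 5), a Ras exchange factor gene that macrophages induce through Toll-like receptors, went from 1.47 ± 0.13 to 5.87 ± 0.336 in WT and from 0.976 ± 0.295 to 10.4 ± 0.744 in KO (interaction 1.06, adjusted p = 0.0326). Stab1, a scavenger receptor of macrophages and endothelium, had 0.93. Ifi204, of the interferon-inducible p200 family, had 0.77, Klhl6 0.62, Coro7 0.49 and Swap70, a signalling protein of B cells and mast cells, 0.46. All 7 genes of this paragraph rose with HFD in both genotypes, and Swap70 had the smallest effects (0.20 in WT and 0.65 in KO).

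Stac2 (217154, chromosome 11), an adaptor gene for voltage-gated calcium channels, was apart between genotypes on HFD and not on NCD. It was at 1.17, 0.931 and 1.36 FPKM in WT and 1.12, 1.22 and 1.15 in KO on NCD, which overlapped. On HFD it was at 4.08, 3.47 and 5.8 in WT and 13, 12.1 and 18.4 in KO, with no overlap. The interaction was 1.49 (SE 0.24, adjusted p = 0.0449).

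Cpe (12876, chromosome 8), which encodes carboxypeptidase E, a prohormone-processing enzyme, had the lowest p-value of the table. It was at 31.6, 28.9 and 32 FPKM in WT and 22.3, 20.1 and 21.4 in KO on NCD, and at 25.2, 29.9 and 25.2 in WT and 39.4, 41.4 and 46.4 in KO on HFD. HFD raised it in KO (0.96), while the WT effect was -0.20 and did not pass (adjusted p = 0.0718). The interaction was 1.16 (SE 0.12, adjusted p = 0.0204). Cpe is not mast cell carboxypeptidase, which is Cpa3.

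No member of the matrix and fibrosis list (0 of 24) or of the adipose progenitor and fibroblast list (0 of 12) passed. A few genes outside those lists that encode secreted or membrane proteins did, and are put side by side here for their roles alone. Timp2, an inhibitor of matrix metalloproteinases, was at 136, 116 and 130.1 in WT and 105, 75.8 and 81.9 in KO on NCD and at 168, 168 and 172 in WT and 218, 214 and 221 in KO on HFD (interaction 0.91). Lrrn4cl (68852, chromosome 19), a membrane protein gene, stayed at 14 ± 2.19 and 13.9 ± 1.24 FPKM in WT and went from 9.07 ± 1.3 to 19.8 ± 1.13 in KO (interaction 1.05). The collagen-binding receptor gene Antxr1 had 0.88, Olfml2b 0.75, Adamtsl5 0.86, the growth factor gene Tgfb2 0.81 and the prostaglandin transporter gene Slco2a1 0.97. Tgfb2 and Slco2a1 fell with HFD in WT (-0.44 and -0.45) and rose in KO (0.37 and 0.52). All genes of this paragraph but Lrrn4cl were named after their values were seen.

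The remaining genes past the threshold are given by value and were also named after their values were seen. Arhgap19, a GTPase-activating protein, had 0.90, Pianp 0.86, Frmd6 0.68, Stard8 0.65, Zmiz2 0.44 and the cytoskeletal adducin gene Add3 0.55. Enpp6, a choline phosphodiesterase, had 0.89, the ubiquitin ligase gene Fbxo32 0.63 and Gabra3, a subunit of the GABA-A receptor, 0.95. Hspa1b, an inducible heat shock protein 70 gene, fell with HFD in WT (-0.73) and stood at 0.12 in KO (interaction 0.85), and it has the near-identical copy Hspa1a, so reads could be shared. LOC115487678, a small nucleolar RNA locus inside Gas5, had 1.43, which polyadenylated libraries measure poorly. Cpa3 overlaps the long noncoding RNA gene Gm31320 (mean 1.5 FPKM), Coro7 overlaps Vasn, Stab1 overlaps Nt5dc2 and Pianp overlaps Cops7a on the annotation, and the counting of strand is not given in the sources used here.

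Wfdc21 (66107, chromosome 11), a small secreted protein of the whey acidic protein family, was the lower gene. It was at 26.2, 40.9 and 30.3 FPKM in WT and 60.9, 60.9 and 61.1 in KO on NCD. On HFD it was at 97.9, 108 and 114 in WT and 60.0, 68.1 and 45.5 in KO. HFD raised it in every WT library above every WT chow library (1.71), while KO chow libraries already stood between the WT groups and the KO diet effect was -0.094 (adjusted p = 0.633). The interaction was -1.80 (SE 0.23, adjusted p = 0.0248).

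**Figure D4:**
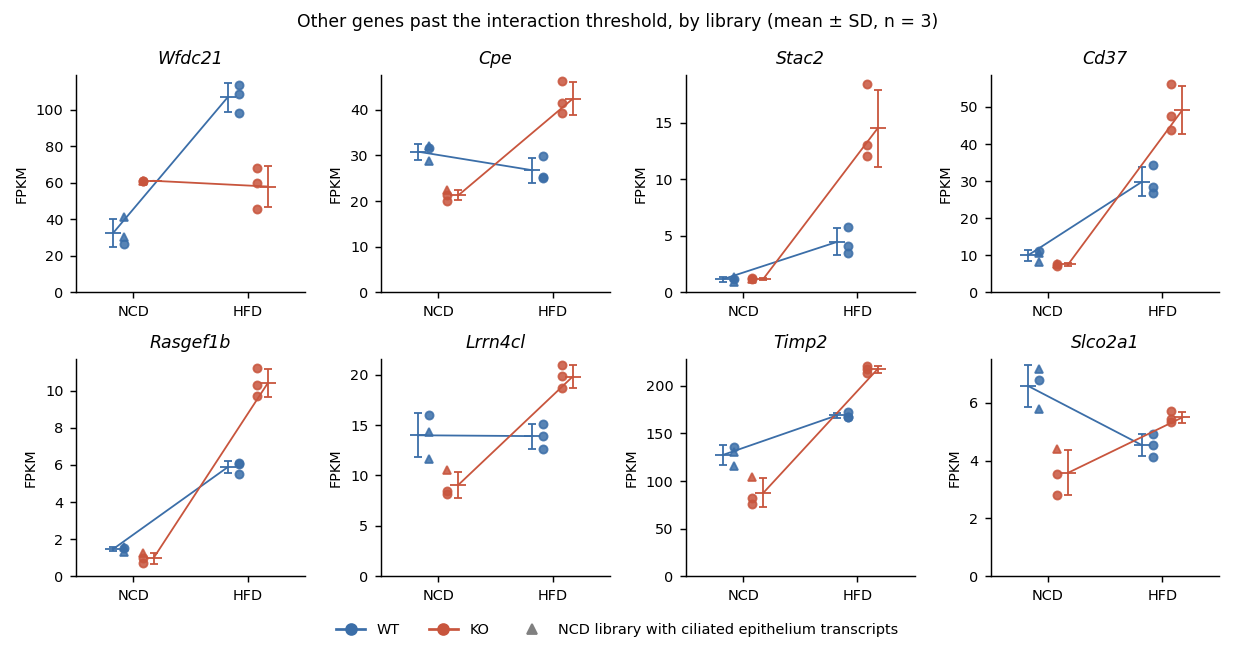
FPKM in every library of 8 other genes past the threshold by diet, drawn as in the plot of mast cell genes (mean and SD, n = 3). Stac2 libraries are apart between genotypes on HFD and overlap on NCD. In Cpe, Cd37, Rasgef1b, Lrrn4cl, Timp2 and Slco2a1, KO is below WT on NCD and above it on HFD. Wfdc21 has the opposite order and rises in WT while the KO mean stays level.

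Calls changed far more than estimates when a single library was left out. Leaving out WT_NCD 1, WT_NCD 4, KO_NCD 3, KO_NCD 4 or WT_HFD 1 left 0 limma calls each, with 2220, 2288, 2010, 2755 and 1751 genes at an unadjusted p under 0.05. Leaving out WT_HFD 2 left 1 call, KO_HFD 3 and KO_HFD 8 left 2 each, KO_HFD 5 left 4, WT_NCD 2 left 15 and WT_HFD 4 left 33. Leaving out KO_NCD 2, the KO chow library with ciliated transcripts, gave 168, with all 39 genes among them. In these 12 fits the 39 estimates kept their sign and ran from 86.3% to 115% of their value, and adjusted p-values ran from 0.00699 to 0.169. Such fits reuse most of the libraries that chose the 39 genes, at fewer residual degrees of freedom. Kept signs and sizes therefore add no support. Without all 3 ciliated libraries 17 genes passed, 9 of them among the 39, and all 39 kept their sign. Those 9 included Tpsb2 (2.77, adjusted p = 0.0219), Cpa3 (2.68, adjusted p = 0.0083), Mcpt4 (2.47) and Wfdc21 (-2.08).

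The balance of directions over the whole table changed with the scaling. Quantile normalization moved the median interaction of all genes by -0.10 and median centring by -0.11, and left 4 calls (3 higher, 1 lower) and 13 calls (11 higher, 2 lower). At an unadjusted p under 0.05, higher genes were 78.7% of the total as deposited, 46.3% after quantile normalization and 42.6% after median centring. The lists below are therefore to be read against the median of all genes, 0.088. The 4 genes that passed after quantile normalization were Tpsb2, Cpe, Arhgap19 and Wfdc21.

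**Figure D5:**
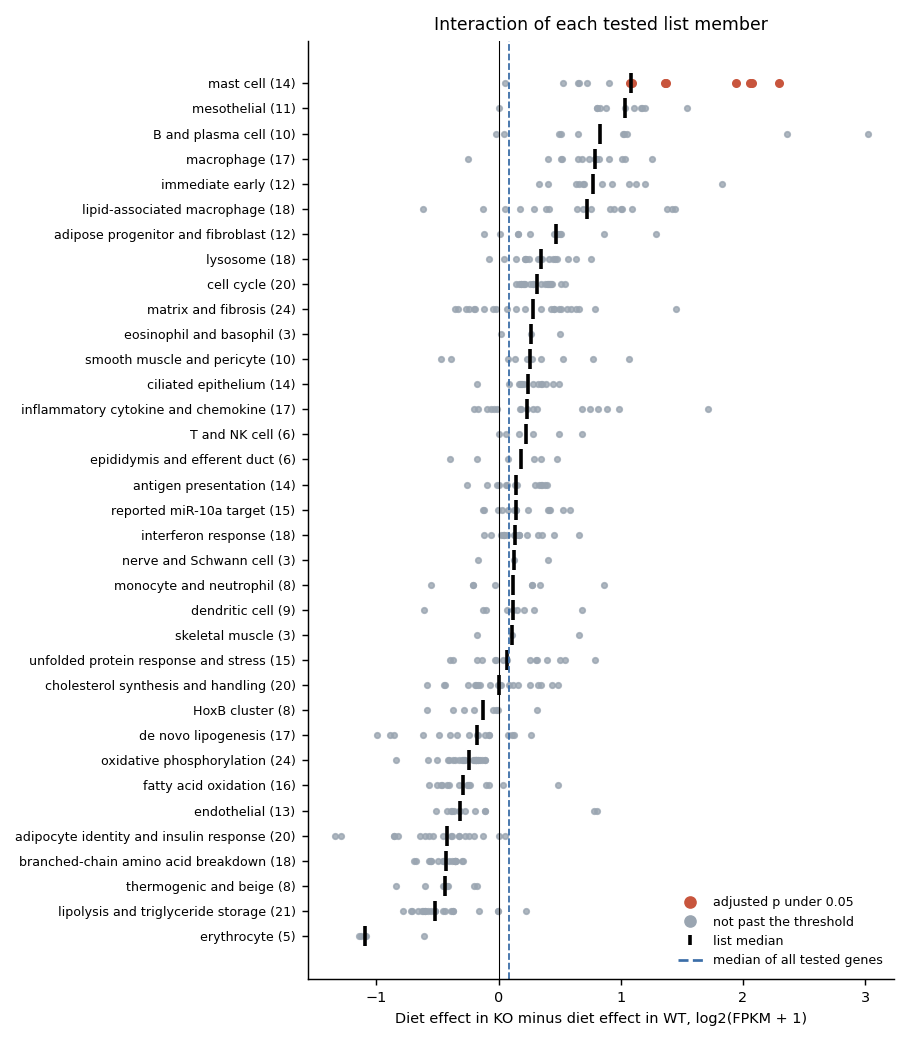
Interaction (KO diet effect minus WT diet effect, log2(FPKM + 1)) of the tested members of 35 gene lists (members not reported here are left undrawn but count in the medians), with the number tested in brackets, list medians as black bars and the median of all tested genes dashed. The red points past the threshold sit in the mast cell list, and the medians of the adipocyte, lipolysis, amino acid breakdown and oxidative phosphorylation lists lie below 0.

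In 32 of the 35 lists no member passed, so their values are descriptions. All 12 immediate early genes, the first to respond when cells are stimulated, had values above 0, as had 64.4% of all genes (median 0.77). Of the 12, 10 had an unadjusted p under 0.05, against 14.5% of all genes, a count that ran from 4 to 10 over the alternatives. Dusp1, a phosphatase gene, was at 42.6, 55.4 and 52.7 FPKM in WT and 40.0, 42.1 and 38.9 in KO on NCD, and 23.8, 25.3 and 30.3 in WT and 40.7, 35.1 and 41.2 in KO on HFD (interaction 0.85, adjusted p = 0.0643). Atf3, a stress-response factor gene, was at 1.13 (adjusted p = 0.105). The summed FPKM of the list was 159 to 225 in WT and 117 to 149.5 in KO on NCD, and 195 to 247 in WT and 277 to 352 in KO on HFD.

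Mesothelial genes had a median of 1.04, with all 11 tested above 0. Of these, 4 were higher at an unadjusted p under 0.05, against 14.5% of all genes. Upk3b, a mesothelial surface protein gene, was at 46.6, 39.1 and 27.5 FPKM in WT and 44.4, 12.7 and 20.1 in KO on NCD, and at 17.9, 8.69 and 6.34 in WT and 19.1, 14.5 and 24.6 in KO on HFD (interaction 1.54, adjusted p = 0.231). Bcam, the most abundant member, was at 0.0059. The ciliated libraries held 252 (KO_NCD 2), 205 (WT_NCD 2) and 149 (WT_NCD 4) summed FPKM of this list, and the other NCD libraries 74.6 to 166. Without these 3 libraries the list median was 1.62, and 8 of 11 genes had an unadjusted p under 0.05.

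Adipose progenitor and fibroblast genes had a median of 0.47 with 7 of 12 higher at an unadjusted p under 0.05. The most abundant were Ly6a (0.16) and Cd34 (0.48). Counts in this paragraph are to be read against 14.5% of all genes higher and 3.94% lower at that threshold. Matrix and fibrosis genes had 0.28 with 7 of 24, where Sparc was at -0.33, Dcn at 0.46 and the fibrillar collagen gene Col1a1 at 0.66 (adjusted p = 0.321). Cell cycle genes had 0.32, all 20 above 0 and 4 at an unadjusted p under 0.05, with Pcna at 0.40 and Mcm6 at 0.44. That count was 14 without WT_HFD 4, whose summed FPKM of the list was 242 against 174.5 and 170.2 in the other WT HFD libraries. It was 0 without KO_NCD 3, WT_HFD 1 or WT_HFD 2 and after quantile normalization. B and plasma cell genes had 0.83 with 3 of 10, and the most abundant, Igkc (3.02, SE 1.34) and Ighm (0.041, SE 0.57), varied widely between libraries. Smooth muscle and pericyte genes had 0.26 with 0 of 10, Rgs5 at -0.39 and Acta2 at 0.24. Endothelial genes had -0.31 with 0 of 13, Cdh5 at -0.39 and Pecam1 at -0.19. Without KO_HFD 8 the endothelial median was -0.005, with 6 of 13 above 0. That library held 164 summed FPKM of the list, against 302.7 and 325.5 in the other KO HFD libraries.

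Other immune lists had medians of 0.12 to 0.27, against 0.088 over all genes. At an unadjusted p under 0.05, 14.5% of all genes were higher, and the counts below are to be read against that share. Inflammatory cytokine and chemokine genes had a median of 0.23, with 4 of 17 at an unadjusted p under 0.05, Ccl9 at -0.012 and Ccl11 at 0.17. Antigen presentation genes had 0.14 with 3 of 14, B2m at -0.26 and H2-D1 at 0.061. Interferon response genes had 0.14 with 2 of 18, Bst2 at 0.018 and Gbp2 at 0.068. Monocyte and neutrophil genes had 0.12 (F13a1 0.34, S100a8 -0.21), dendritic cell genes 0.12 (Clec10a 0.68, Irf8 0.29), and T and NK cell genes 0.23 (Trac 0.0067, Nkg7 0.061). For eosinophils and basophils 3 genes were tested (median 0.27, Ear2 0.019, Ccr3 0.50). The unfolded protein response and stress list, which is not an immune list, stood at 0.066, with Hspa5 at 0.40 and Xbp1 at -0.023. Of its 15 tested genes, 5 were higher at an unadjusted p under 0.05, against 14.5% of all genes.

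Most lists of adipocyte metabolism had medians below 0, with no member past the threshold and the cholesterol list as the exception. Genes of branched-chain amino acid breakdown were below 0 in 18 of 18 (median -0.43), and 8 had an unadjusted p under 0.05, against 3.94% of all genes in that direction. This count ran from 1 to 15 over the alternatives. Their median diet effect was -0.95 in WT and -1.41 in KO, with Aldh6a1 at -0.55 and Hibadh at -0.41. Lipolysis and triglyceride storage genes had a median of -0.52 with 5 of 21, Dgat2 at -0.39 and Plin4 at -0.52. Without KO_HFD 8, the lowest library at 1652 summed FPKM against 2523 and 2869 in the other KO HFD libraries, the median was -0.29 with 3 of 21. Without KO_HFD 5 it was -0.74 with 12 of 21. Pnpla2, the lipase that starts triglyceride breakdown, was at 317, 326 and 255 FPKM in WT and 228, 239 and 144 in KO on HFD (interaction -0.71, adjusted p = 0.214), chosen after its values were seen.

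Adipocyte identity and insulin response genes had -0.42, with Fabp4 at -0.64 and the adipsin gene Cfd at -1.34. Of the 20, 4 were lower at an unadjusted p under 0.05, against 3.94% of all genes. KO_HFD 8 was again lowest (10660 summed FPKM against 14470 and 15980), and without it the median was -0.25 with 3 of 20. The count ran from 2 to 10 over the alternatives. The adiponectin gene Adipoq was at 1029, 1110.0 and 825 FPKM in WT and 650.5, 784 and 376 in KO on HFD, after 2071 ± 193 in WT and 2217 ± 306 in KO on NCD (n = 3, interaction -0.86, adjusted p = 0.223). The leptin gene Lep was at -0.38 (adjusted p = 0.676). Oxidative phosphorylation genes were below 0 in 24 of 24 (median -0.24, 2 at an unadjusted p under 0.05, against 3.94% of all genes), with Atp5b at -0.32 and Cox4i1 at -0.30. That count of 2 was 12 after median centring, 8 after quantile normalization and 11 without WT_HFD 4, and the 24 values stayed below 0 in each of these. Fatty acid oxidation genes had -0.29 with 5 of 16 lower and 1 higher, Acadm at -0.47. De novo lipogenesis genes had -0.18 with 3 of 17, Scd1 at -0.85, Thrsp at -0.89 and Fasn, the fatty acid synthase gene, at -0.11. Thermogenic genes had -0.43 with 1 of 8 (Cox8b -0.84, Kcnk3 -0.45), and cholesterol genes 0.004 with 2 of 20 lower and 1 higher (Hmgcs1 -0.59, Insig1 -0.44).

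Erythrocyte genes had the lowest list median, -1.09, with 4 of 5 lower at an unadjusted p under 0.05, against 3.94% of all genes. Hbb-bs, a beta-globin gene, was at 469, 652 and 633 FPKM in WT and 432, 784 and 651 in KO on NCD, and at 316, 472 and 212 in WT and 119, 198 and 158 in KO on HFD (interaction -1.08, adjusted p = 0.228). The alpha-globin gene Hba-a1 was at -1.12, and globin genes have near-identical copies between which reads could be split. Lists of neighbouring tissue stood near 0, with ciliated epithelium at 0.24 (Tppp3 0.50, Foxj1 0.45) and epididymis and efferent duct at 0.18 (Aqp1 -0.39, Adgrg2 0.078). Without the 3 ciliated libraries these medians were -0.15 and -0.26. Skeletal muscle (median 0.11, Acta1 -0.18, Pvalb 0.11) and nerve (0.13, Mbp 0.40, S100b -0.17) had 3 tested genes each.

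Reported targets of miR-10a are the messages a loss of the microRNA could raise. A rise shared by both diets cancels in the interaction, which therefore does not measure it. The median KO minus WT difference of the list was -0.096 on NCD and 0.059 on HFD. Over all tested genes it was -0.054 and 0.033. Of 18 listed genes 15 were tested and 0 passed the interaction threshold, with a median interaction of 0.14. Of the 15, 3 were higher at an unadjusted p under 0.05, against 14.5% of all genes. Map3k7, which encodes the kinase TAK1, was at 12, 10.9 and 9.66 FPKM in WT and 9.85, 9.44 and 11.8 in KO on NCD, and 11.6, 10.9 and 12 in WT and 11.9, 11.6 and 11.4 in KO on HFD. The genotypes overlapped on both diets (interaction 0.08, adjusted p = 0.773). Klf11, a transcription factor gene, was at 0.42 (adjusted p = 0.253), and Klf4 at 0.41. HoxB genes around Mir10a had a median of -0.12, with Hoxb3 at -0.0019, Hoxb4 at -0.20, Hoxb6 at -0.02 and Hoxb7 at -0.047. The medians of the HoxB, monocyte, skeletal muscle, cholesterol and stress lists changed sign in some alternatives, median centring or the loss of 1 library among them.

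The seed match ACAGGGT, the reverse complement of the seed in DNA letters, searched on the transcript strand only, was found in the longest annotated 3′ untranslated region of 4 of 38 genes past the threshold (10.5%). It was in 1885 of 12628 tested genes with such a region (14.9%), at median lengths of 1529 and 1307 bases. The 4 genes were Antxr1, Arhgap19, Enpp6 and Lrrn4cl. The median interaction was 0.12 for genes with a match and 0.09 for those without. A rise of matched genes on both diets would cancel in this contrast.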

How the data were processed

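Polyadenylated RNA of 12 samples was sequenced from TruSeq Stranded libraries, per the labels' protocols. The deposited values are FPKM per gene and library, per the file headers. Per the submitters' processing notes, bcl2fastq 2.20.0, Trimmomatic, HISAT2 2.1.0, StringTie 1.3.4d, DESeq2 and mm10 were used, without stated roles. Of 30268 NCBI gene IDs 30196 matched a RefSeq symbol (GRCm38.p6). Genes with at least 1 FPKM in at least 3 of 12 libraries (14340) were fitted as log2(FPKM + 1) with 4 group means, 8 residual degrees of freedom, limma 3.58.1 in R 4.3.3, trended empirical Bayes and Benjamini-Hochberg adjustment per comparison. Adding 1 FPKM shrinks differences of low genes. P-values judge a difference of group means against the spread between these samples, with the spread of a gene shared over the 4 groups. The fit was tested on simulated data. The members, the 35 lists and the tests were chosen with earlier results of these data known. Genes named were the 12 highest and 12 lowest interactions that passed in genes averaging 1 FPKM or more (unnamed predicted genes and pseudogenes left out), up to 4 members past it per list (the 2 most abundant where none passed), and Lep, Adipoq, Adgre1, Trem2, Col1a1, Fasn, Kit, Map3k7, Klf11, Hoxb3, Hoxb4 and Mir10a. A few genes that the rule picks, 3 of them past the threshold, are not reported here. Alternatives changed the pseudocount, filter, scaling, moderation, weights and libraries. Sites were searched in GENCODE M21.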

Additional observations from a re-analysis of the deposited data

Results flagged for a closer look

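The 36 genes below differ between genotypes in their diet response by the limma interaction test itself, which is what puts them here, and values are interactions on the log2(FPKM + 1) scale. Groups of 3 libraries are too small for a check of single outlying libraries. Mast cell genes were Tpsb2 (2.30), Mcpt4 (2.08), Cpa3 (2.06), Cma1 (1.94), Tpsab1 (1.37), Fcer1a (1.37), Mrgprb2 (1.09) and Mrgprb1 (1.07). Of these, Tpsab1, Mrgprb2 and Mrgprb1 reached 1 FPKM in KO on HFD only. Genes known from macrophages or other leukocytes were Cd37 (1.06), Rasgef1b (1.06), Stab1 (0.93), Ifi204 (0.77), Klhl6 (0.62), Coro7 (0.49) and Swap70 (0.46).

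Secreted, matrix and membrane genes were Cpe (1.16), Lrrn4cl (1.05), Slco2a1 (0.97), Timp2 (0.91), Antxr1 (0.88), Adamtsl5 (0.86), Tgfb2 (0.81) and Olfml2b (0.75). The others were Stac2 (1.49), LOC115487678 (1.43), Gabra3 (0.95), Arhgap19 (0.90), Enpp6 (0.89), Pianp (0.86), Hspa1b (0.85), Frmd6 (0.68), Stard8 (0.65), Fbxo32 (0.63), Add3 (0.55), Zmiz2 (0.44) and, in the lower direction, Wfdc21 (-1.80).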

How the results depend on the processing

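All 39 genes kept their direction in the alternatives in which they were tested. The count of 39 became 24 with no filter, 4 after quantile normalization, 13 after median centring, 17 without the 3 ciliated NCD libraries (which leaves 1 WT library on NCD, assumed to vary like the other groups) and 987 with array weights, whose estimation stopped before convergence. Leaving out single libraries gave 0 to 168. Pseudocounts of 0.1 and 0.5, a mean of at least 5 FPKM, no trend and robust empirical Bayes gave 28, 34, 42, 35 and 40. The diet effect had 7279 genes in WT, 4695 with a mean of at least 5 FPKM (fewer genes tested) and 3878 without the ciliated libraries, and 8730 in KO, 5765 with a mean of at least 5 FPKM. Single libraries moved these to 5849 to 7652 and 7779 to 8756. The genotype effect on NCD had 7 genes, 14 with no filter, 16 with array weights, 4 without the ciliated libraries and 6 to 15 without single libraries. On HFD it had 115, 232 with a mean of at least 5 FPKM, 6011 with array weights, 25 without the ciliated libraries and 17 to 953 without single libraries. After quantile normalization the KO diet calls were 3989 higher and 4814 lower, and the HFD genotype calls 67 and 46. Without Hpgds, an alternative chosen after seeing the data, the median mast cell sum on HFD was 76.1 in place of 101 FPKM in WT and 168 in place of 219 in KO. Where not stated, the cause was not tested. No paired analysis was possible because the columns carry other numbers than the replicate numbers of the sample titles. Unknown depth limits what can be said of genes near 1 FPKM.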

Other observations

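A few genes just outside the threshold were chosen after their values were seen. The mitochondrial ribosomal RNA genes mt-Rnr1 and mt-Rnr2 had interactions of -1.09 (SE 0.20, adjusted p = 0.0601) and -1.11 (SE 0.21, adjusted p = 0.0659). On HFD mt-Rnr1 was at 389.6, 423 and 354 FPKM in WT and 226, 249.5 and 223 in KO, after 232, 316 and 349 and 339, 408 and 384 on NCD. Mitochondrial transcripts as a whole made up 14.6% to 17.5% of the summed FPKM of the NCD libraries, 9.24% to 13.1% in WT on HFD and 7.52% to 9.83% in KO on HFD. The share was thus lower on HFD in both genotypes, while mt-Rnr1 was higher on HFD in WT and lower in KO. The part of the share in the mt-Rnr values was not tested.

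Htr2b, a serotonin receptor gene, was at 1.66, 1.62 and 1.84 FPKM in WT and 3.67, 3.63 and 5.67 in KO on HFD and at a mean of 0.0696 and 0.0159 on NCD (1.03, adjusted p = 0.0643). Peg3, an imprinted zinc finger gene, was at 11.4, 6.85 and 9.32 in WT and 7.52, 7.09 and 4.69 in KO on HFD, after 2.48, 3.04 and 2.95 and 4.99, 5.18 and 5.84 on NCD (-1.18, adjusted p = 0.102). Opn3, an opsin gene of adipocytes, fell with HFD in both genotypes, with diet effects of -1.35 in WT and -2.15 in KO on the log2 scale (-0.81, adjusted p = 0.0808).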
